A study of Mus musculus with 25 samples.

Results

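Gusb, Gm5614, Gm10801, Gm26553, Plag1 and Ryr3 were 6 genes to which some of the highest-scoring H3K27me3 peaks of 14-dpi regenerating mouse myofibers were assigned. They were chosen by those H3K27me3 scores, so their H3K27me3 values are given as a description and were not tested. The members were found by the gene symbol that accompanied each peak, and all 6 of 6 were present among the 9995 symbols of the 24 peak lists. They held 162 of the 55242 peaks, of which 114 were H3K27me3 peaks and 48 were H3K9me3 peaks.

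The lists came from chromatin immunoprecipitation sequencing (ChIP-seq) of H3K27me3 and H3K9me3 in Dendra2+ myofibers dissected from the tibialis anterior muscle at 14 days after BaCl2 injury. There were 4 genotypes with 3 libraries per mark: wild-type, mfn2-/- (without mitofusin 2, a protein of mitochondrial fusion), vhl-/- (without the protein that targets HIF1α for degradation) and HIF1dPA (carrying a HIF1α that escapes degradation). All mice, wild-type included, carried the mito-Dendra2 allele and the Pax7-Cre(ERT2) driver, which recombines in muscle stem cells, and received tamoxifen at 75 mg/kg once a day for 5 days before 50 µL of 1.2% BaCl2. The alleles were therefore changed in muscle stem cells and the fibers they formed, whereas nuclei of other cells in a dissected fiber kept them, and age was not given in the labels.

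H3K27me3 is placed by Polycomb repressive complex 2, chiefly over CpG-rich stretches of developmental genes that a cell keeps silent, where it often spreads over several kilobases. H3K9me3 is placed by other methyltransferases and marks constitutive heterochromatin, including satellite repeats and zinc-finger gene clusters. In differentiated muscle, both marks cover genes of other lineages and of earlier stages, and the 2 marks usually lie in different places.

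The lists described what was called rather than an amount. Each peak had a score of 10 times the negative log10 of its p-value, from 50 to 3100, and each list ranked its peaks by that score. The lists held 482 to 501 H3K27me3 peaks in HIF1dPA and 3358 to 4035 in the other genotypes, and 2885 to 3176 H3K9me3 peaks in wild-type and 887 to 1709 in the mutants. Read totals were not in the lists, so depth was unknown, and for HIF1dPA H3K27me3 and for all mutant H3K9me3 lists genotype and list length cannot be told apart. These 2 marks give no check of myofiber identity, and most genes had no peak. None of 12 myofiber genes, among them Acta1, Ckm and Myh4, had a peak of either mark in any list. Of 8 genes of other cells, 3 had H3K27me3 peaks, Pdgfra in 9 lists, Pax7 in 5 and Ptprc in 1, while Adgre1 and Cdh5 had H3K9me3 peaks in 1 list each, and their part in any result was not tested.

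RefSeq (GRCm38.p6, the assembly behind mm10) had promoter sequences for 2 of the 6 genes, Gusb and Gm26553, and for Platr30, a long noncoding RNA that overlaps Gm26553. They are shown so that the start sites can be set beside the peaks assigned to these genes. Each runs 5′ to 3′ on the gene's strand, from 250 bases before to 50 bases after the start, with every CpG in capitals.
Gusb: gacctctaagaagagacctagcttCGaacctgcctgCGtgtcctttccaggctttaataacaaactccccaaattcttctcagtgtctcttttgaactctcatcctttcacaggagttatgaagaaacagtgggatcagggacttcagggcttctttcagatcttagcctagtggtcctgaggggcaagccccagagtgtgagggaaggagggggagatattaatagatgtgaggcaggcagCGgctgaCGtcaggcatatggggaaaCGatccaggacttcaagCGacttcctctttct
Gm26553: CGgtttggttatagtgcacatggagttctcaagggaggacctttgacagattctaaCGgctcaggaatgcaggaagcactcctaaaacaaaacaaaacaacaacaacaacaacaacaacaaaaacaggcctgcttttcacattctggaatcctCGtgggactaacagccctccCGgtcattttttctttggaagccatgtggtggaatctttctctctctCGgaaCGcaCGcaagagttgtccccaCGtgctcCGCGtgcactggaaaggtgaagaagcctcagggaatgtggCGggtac
Platr30: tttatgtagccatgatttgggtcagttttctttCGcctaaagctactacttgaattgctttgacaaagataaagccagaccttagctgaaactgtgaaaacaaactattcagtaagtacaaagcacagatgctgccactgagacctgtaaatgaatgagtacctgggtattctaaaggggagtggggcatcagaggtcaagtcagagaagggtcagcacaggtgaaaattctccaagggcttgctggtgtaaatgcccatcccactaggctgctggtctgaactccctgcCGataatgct

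The Gusb window (chr5:130003000-130003299, minus strand) held 6 CpGs, and 56.4% of all 32851 RefSeq promoter windows of this length held at least as many. It lay in 0 of 12 H3K27me3 lists and 0 of 12 H3K9me3 lists. The Gm26553 window (chr3:96357059-96357358, minus strand) held 11 CpGs, a number reached by 41.4% of promoters, and the Platr30 window (chr3:96345037-96345336, plus strand) held 2, reached by 85.9%. All promoters had a median of 7 CpGs, so none of the 3 windows was among the CpG-richest. The Gm26553 window was touched by an H3K27me3 peak in 3 of 3 mfn2-/- and 3 of 3 vhl-/- lists, and in no wild-type or HIF1dPA list. Scores were 154, 56.8 and 52.6 in mfn2-/- and 352, 211 and 66.2 in vhl-/-. The authors assigned all these peaks to Platr30, and the one in vhl-/- 3 ended at 96357064, at the edge of the window. The share of all promoters with such a pattern was not computed, so nothing is read from it. In wild-type 1 the window fell between a peak that ended at 96356955 and another that began at 96357497. In wild-type 2 the nearest peaks ended at 96351619 and began at 96357630, and in wild-type 3 they ended at 96351205 and began at 96358816. The Platr30 window was touched in 4 lists, and H3K9me3 peaks touched none of the 3. A second Gm26553 window in the RefSeq table (chr3:96352157-96352456, minus strand), with 2 CpGs, lay in no peak of either mark.

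Gusb encodes β-glucuronidase, a lysosomal enzyme that breaks down glycosaminoglycans, and is commonly used as a housekeeping gene. Its H3K27me3 peak was listed in 3 of 3 wild-type libraries and in 0 of 9 mutant libraries. The scores were 994, 848 and 853, and in each wild-type list this was the second-highest peak, among 3776, 3443 and 3433 peaks. The merged interval, chr5:129994083-129996789 in mm10, lay over exon 9 of 12 in the authors' annotation, 6260 bp inside the 5′ boundary of the gene (chr5:129989011-130003049). Starts differed by 242 bp and ends by 168 bp between the 3 lists, and the covered length was 2435 ± 125 bp (SD, n = 3). The peak was thus an isolated block within the gene body, and no other Gusb peak of either mark was listed in any library.

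The lists without a Gusb peak held 3358 to 3679 peaks in mfn2-/-, 3636 to 4035 in vhl-/- and 482 to 501 in HIF1dPA, beside 3433 to 3776 in wild-type, and the part of list length in the absence was not tested. Of 15965 merged H3K27me3 regions, 20 were in all 3 wild-type and no mutant lists (0.125%), and 2 of them were the Gusb region and the main Ryr3 region, which nothing can be read from because the scores chose both genes. The other 18 regions had median wild-type scores of 51.4 to 89.7, compared with 853 at Gusb and 221 at Ryr3. Of the 13 lysosomal glycosaminoglycan enzyme genes, 1 was assigned H3K9me3 peaks, Ids in 2 lists.

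Ryr3 encodes a ryanodine receptor, a calcium release channel of the sarcoplasmic reticulum that is expressed in developing skeletal muscle. Its main H3K27me3 peak lay in intron 1 of 102, at chr2:113174246-113176706, 40699 bp inside the 5′ boundary of the 586052-bp gene. Scores in wild-type 1 to 3 were 221, 405 and 131, at ranks 76, 9 and 276. Widths were 2313, 2461 and 1560 bp, and the 3 starts fell within 117 bp. The interval was listed in 3 of 3 wild-type and 0 of 9 mutant lists, as for Gusb, but its score ranged more widely between replicates.

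Outside that interval Ryr3 had 3 weak H3K27me3 peaks, none seen in more than 1 list. Wild-type 2 had 1 between genes with a score of 82.3, wild-type 3 had 1 in intron 64 of 103 with 52.7, and vhl-/- 2 had 1 in intron 12 with 51.1. The vhl-/- peak, at rank 3742 of 4035, was the only H3K27me3 peak of Ryr3 in a mutant list. Among 14 ryanodine receptor and triad genes, which couple the muscle membrane to calcium release, 5 had an H3K27me3 peak in any list. Apart from Ryr3 these were Ryr2 in 2 vhl-/- lists (65.3 and 82.0), and Cacna1c, Jph1 and Atp2a2 in 1 list each, with scores of 50.4 to 63. For H3K9me3, 3 of the 14 genes had a peak in any list. These were Ryr3 in 4 lists, Trdn in 3 wild-type lists (54.1 to 65) and Ryr2 in 1 mfn2-/- list (54.9). Ryr1, Cacna1s, Casq1 and Atp2a1 were among the genes with no peak of either mark.

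**Figure D1:**
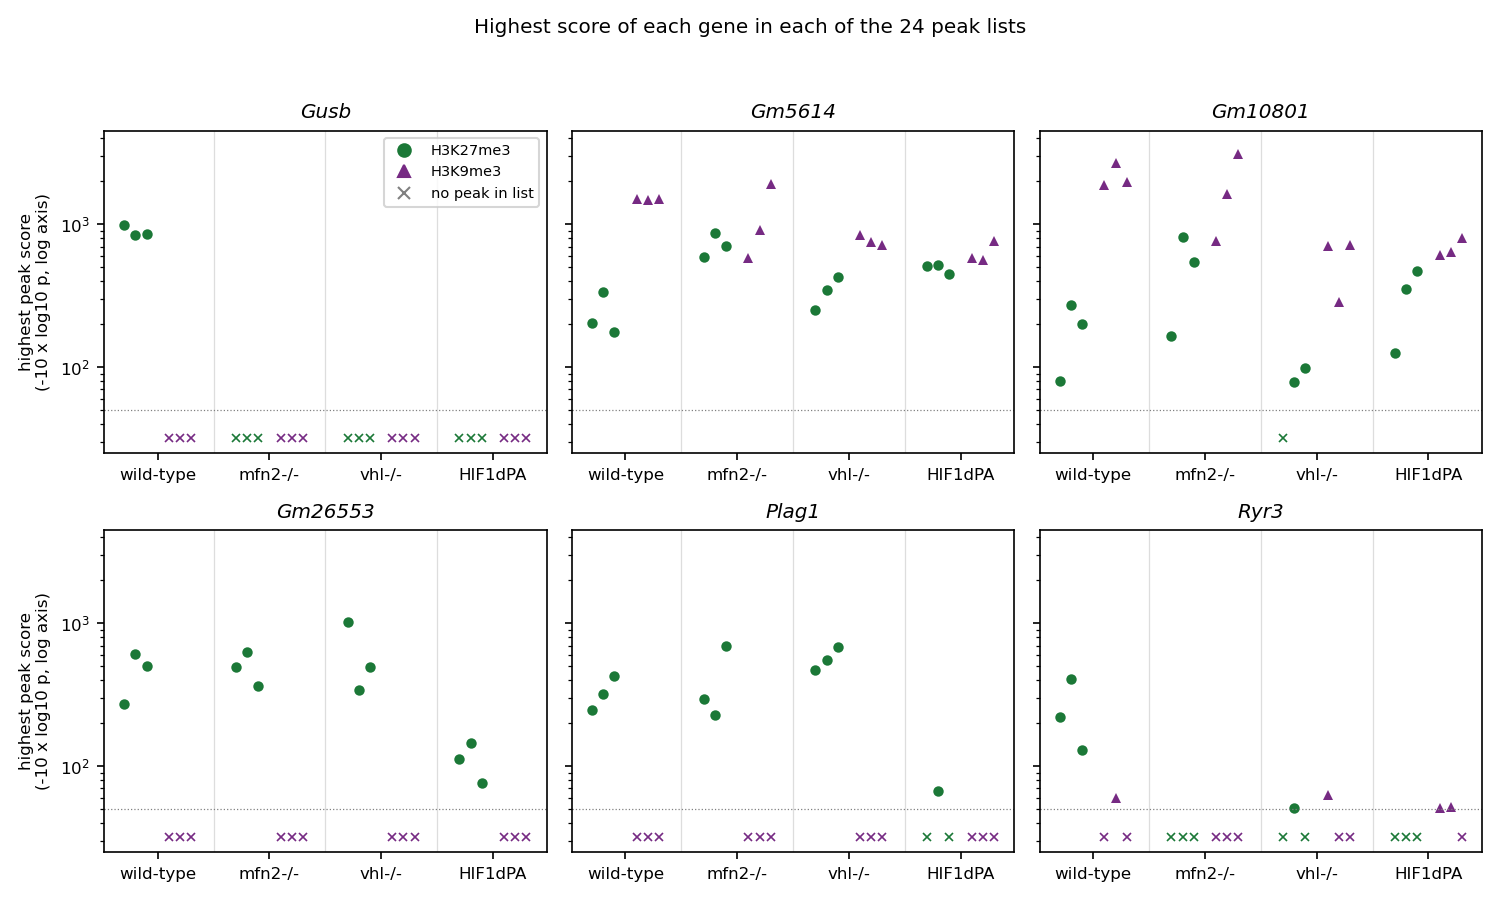
Highest peak score of each gene in each list (vertical, log axis), by genotype, with green circles for H3K27me3, purple triangles for H3K9me3 and crosses for lists with no peak. The dotted line is the lowest score listed, 50. Gusb has circles only in wild-type, whereas Gm5614 has a circle and a triangle in every column.

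Plag1 encodes a zinc-finger transcription factor of the PLAG family that is active in fetal growth. It was assigned H3K27me3 peaks in 10 of 12 lists and H3K9me3 peaks in 0 of 12. The highest scores were 249, 320 and 432 in wild-type and 298, 230 and 698 in mfn2-/- lists. In vhl-/- lists they were 469, 556 and 684. The share of all genes with as large a difference between genotypes was not computed. HIF1dPA had 1 peak, in replicate 2, with a score of 67.7 at rank 102 of 499.

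Peaks of Plag1 filled chr4:3929613-3937803, an interval of 8191 bp that reached from intron 1 of 5 to the promoter and ended 627 bp short of the RefSeq gene boundary. The covered length was 5819 ± 342 bp in wild-type, 5746 ± 844 bp in mfn2-/- and 6872 ± 45.5 bp in vhl-/- myofibers (SD, n = 3 each). In HIF1dPA it was 637 bp in 1 list and 0 in the other 2. The same stretch was called as 1 peak of 6506 bp in mfn2-/- 3 and as 4 peaks in mfn2-/- 1 and 2, so peak number and top score at Plag1 depended on how the block was split. One further peak, in intron 3 of vhl-/- 1, had a score of 51.5.

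Neither Plagl1 nor Plagl2, the other PLAG genes, had a peak of either mark. Of 7 neighbours of Plag1 on chromosome 4, 4 had H3K27me3 peaks. Mos, an oocyte kinase, had them in 7 lists (3 wild-type, 1 mfn2-/- and 3 vhl-/-) with scores of 51 to 219. Penk, the enkephalin precursor, had them in 5 lists with scores of 51.1 to 82.2, and Rps20 and Sdr16c6 in 1 list each, whereas Chchd7, which begins next to Plag1, had none.

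Gm26553 is a long noncoding RNA gene whose product has no established function. It was assigned H3K27me3 peaks in 12 of 12 lists and H3K9me3 peaks in 0 of 12. The highest scores were 271, 610 and 503 in wild-type, 495, 632 and 364 in mfn2-/-, and 1022, 343 and 499 in vhl-/- lists. In the far shorter HIF1dPA lists they were 113, 146 and 76.9. Ranks there were 15, 10 and 50 in lists of 482 to 501 peaks, compared with 39, 4 and 6 in wild-type lists of 3433 to 3776.

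In 10 of 12 lists the highest-scoring peak of Gm26553 lay 4443 bp or more from the gene, in chr3:96337454-96345144, a stretch that the annotation classed as distal intergenic and that held 1 transfer RNA gene, n-TQctg5. This stretch was listed in 11 of 12 lists and missing in HIF1dPA 1. A second stretch, chr3:96345514-96351809, held the highest-scoring peak in HIF1dPA 1 and 3. It was listed in 12 of 12 lists and carried peaks assigned to Gm26553 or Platr30, including a 4084-bp Platr30 peak in vhl-/- 3 with a score of 484. In 11 or more of 12 H3K27me3 lists there were 80 of the 15965 regions (0.501%), among them the regions of Gm26553, Gm5614 and Gm10801, which were chosen from the same lists. The covered length of peaks assigned to Gm26553 was 7930 ± 1291 bp (wild-type), 7302 ± 648 bp (mfn2-/-), 7275 ± 2668 bp (vhl-/-) and 2321 ± 1300 bp (HIF1dPA, SD, n = 3 each). One peak of 7691 bp in vhl-/- 1 was the top-ranked H3K27me3 peak of its list and was second by width.

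**Figure D2:**
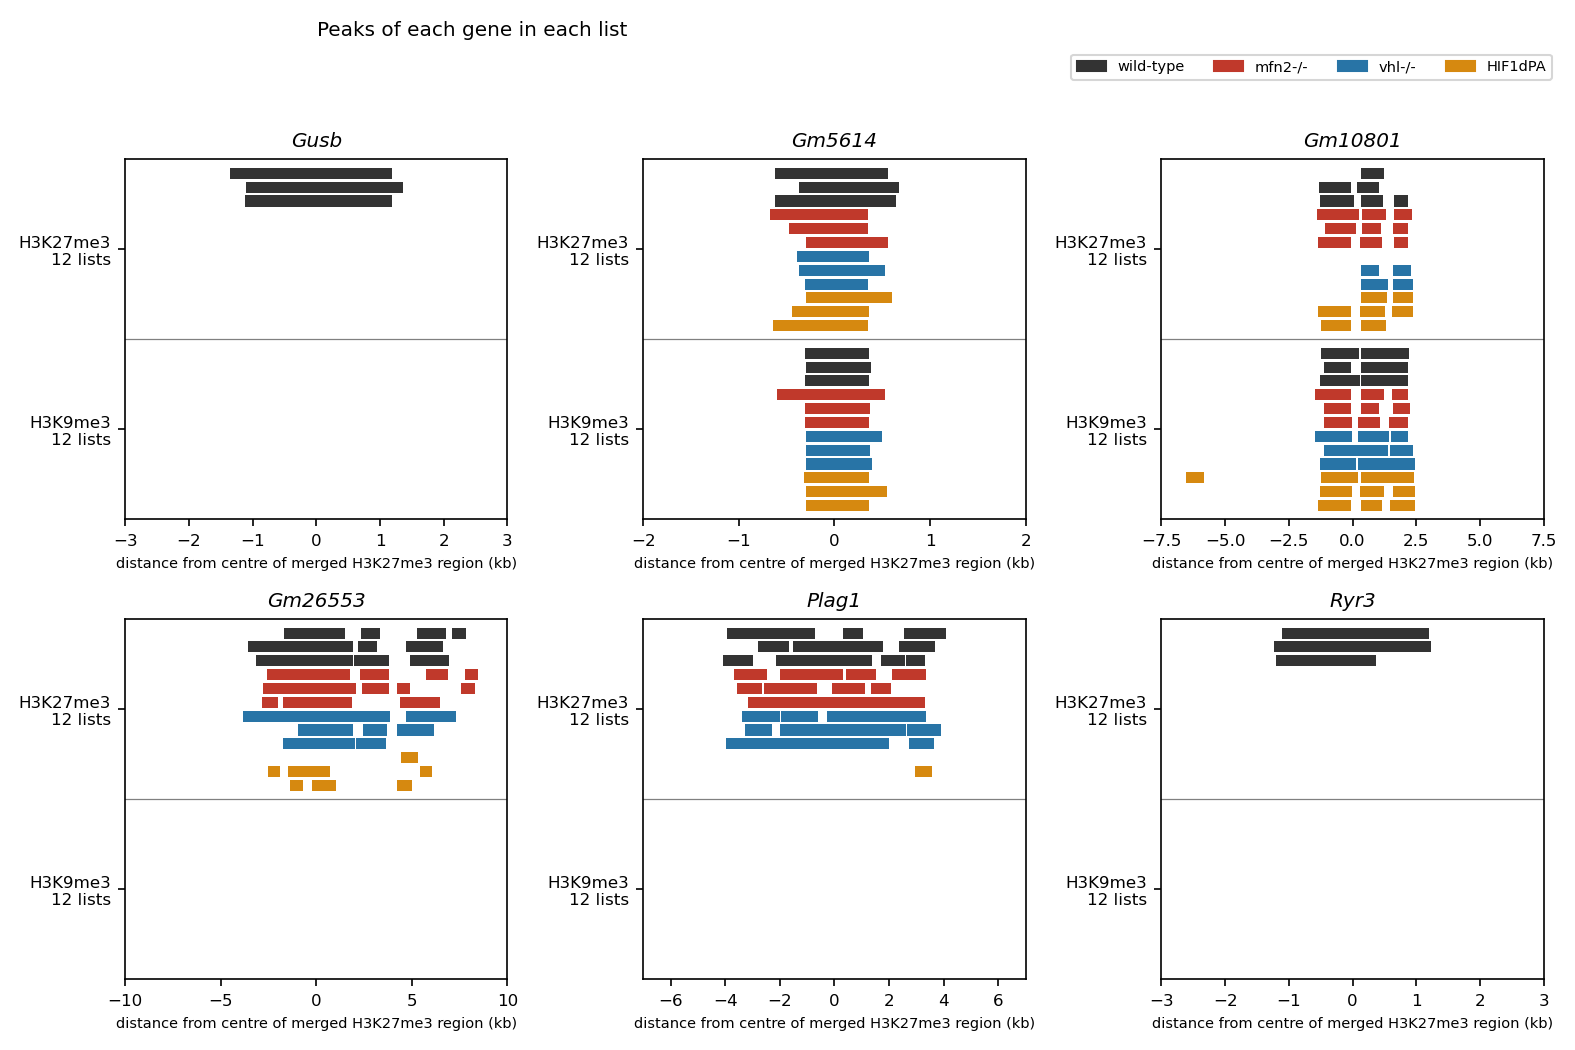
Peaks of each gene in each of 24 lists, 1 row per list, coloured by genotype, with the 12 H3K27me3 lists above the line and the 12 H3K9me3 lists below. The horizontal axis is distance in kb from the centre of the gene's main H3K27me3 region, so the weak Ryr3 peaks and 2 single peaks of Gm5614 and Plag1 fall outside. Gm5614 and Gm10801 have peaks in the lists of both marks over the same stretch, and the other 4 genes have no H3K9me3 row filled.

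Gm5614 is a predicted pseudogene. It was assigned a peak in all 24 lists, those of both marks. H3K27me3 scores were 205, 336 and 178 in wild-type and 590, 866 and 704 in mfn2-/- lists. They were 253, 347 and 428 in vhl-/- and 510, 522 and 450 in HIF1dPA lists. The share of all genes whose scores separated by genotype was not computed, so nothing is read from the order of these scores. Ranks were 103, 14 and 106 in wild-type, 1, 1 and 3 in mfn2-/- and 92, 27 and 11 in vhl-/- lists. In the far shorter HIF1dPA lists they were 2, 2 and 3. Nothing is read from these ranks either.

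H3K9me3 scores of Gm5614 had another order. They were 1509, 1483 and 1504 in wild-type, 578, 919 and 1927 in mfn2-/-, 836, 753 and 714 in vhl-/- and 578, 566 and 767 in HIF1dPA lists. The scale of the scores differed between lists. The highest H3K9me3 score of a list was 2851 to 2962 in wild-type and 1259 to 3100 in mfn2-/-. It was 985 to 1084 in vhl-/- and 1218 to 1288 in HIF1dPA. The peak ranked between 3 and 7 in all 12 lists, whose lengths ranged from 887 to 3176. The interval was chr9:35304699-35306050, 22829 bp from the RefSeq pseudogene (chr9:35281467-35281870) and inside another RefSeq long noncoding RNA, Gm33838. The symbol Gm5614 is thus the authors' assignment and not the RefSeq gene under the peak.

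The borders of the Gm5614 interval differed between lists. Its width was 652 to 1132 bp in H3K9me3 lists and 653 to 1270 bp in H3K27me3 lists. H3K9me3 starts fell within 306 bp and ends within 193 bp over 12 lists, with a median width of 676.5 bp, and H3K27me3 starts fell within 382 bp and ends within 330 bp, with a median width of 898 bp. Every base of the H3K9me3 peaks was also in an H3K27me3 peak of some list, and 1151 of the 1885 bases assigned to Gm5614 in H3K27me3 lists (61.1%) were in an H3K9me3 peak. One weak H3K27me3 peak of 533 bp in mfn2-/- 1, with a score of 56.3, lay elsewhere.

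Gm10801 is a predicted gene for which the RefSeq table had no entry, and no RefSeq gene lay within 10 kb of its main H3K27me3 region. It was assigned H3K9me3 peaks in 12 of 12 lists and H3K27me3 peaks in 11 of 12, absent only in vhl-/- 1. The highest H3K27me3 scores were 80.3, 273 and 199 in wild-type, 166, 818 and 550 in mfn2-/-, and 126, 355 and 472 in HIF1dPA lists. In vhl-/- 2 and 3 they were 79.6 and 98.4. The spread between replicates was as wide as that between genotypes, with scores from 166 to 818 among the 3 mfn2-/- lists.

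The H3K9me3 scores of Gm10801 were among the highest of any gene. They were 1876, 2700 and 1986 in wild-type and 770, 1641 and 3100 in mfn2-/- lists, the last at the upper end of the score range, which 4 peaks in all reached. They were 704, 285 and 719 in vhl-/- and 612, 646 and 803 in HIF1dPA lists. Ranks were between 1 and 5 in 11 lists and 24 in vhl-/- 2. The peaks filled chr2:98661690-98665645 as 2 or 3 adjoining intervals, whose starts and ends recurred in both marks, and all 3590 bases in H3K27me3 peaks were also in H3K9me3 peaks, as were 31 of 32 H3K9me3 peaks with H3K27me3. The exception was a 708-bp H3K9me3 peak in HIF1dPA 1 further upstream, with a score of 73.3.

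Gm10800, the neighbouring predicted gene, was also listed for H3K9me3 in 12 of 12 lists (scores of 136 to 2770) and for H3K27me3 in 8 of 12 (51.2 to 694). Of 15 predicted genes known to adjoin satellite repeats, 4 had H3K9me3 peaks and 3 had H3K27me3 peaks. Beside Gm10800 and Gm10801 only Gm10714 and Gm10715 were listed, with scores of no more than 62.3, so 2 of the 15 genes carried the strong signal.

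H3K9me3 did not choose the members and could be tested. Covered length was compared across the 4 genotypes by an exact permutation test over the 12 libraries for each of the 1491 genes with an H3K9me3 peak in at least 3 lists, with Benjamini-Hochberg adjustment over all of them. Gm5614, Gm10801 and Ryr3 entered the test. Gusb, Plag1 and Gm26553 had no H3K9me3 peak and did not. At an adjusted p under 0.05, 3 of 1491 genes differed across genotypes (0.201%), and none was a member. At an unadjusted p under 0.05 there were 397 genes, again without a member. A gene listed in all 3 libraries of 1 genotype and in no other can reach a p of no less than 0.0182 in this test, and with 397 of 1491 genes under 0.05 such a gene could not pass the adjustment here.

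At Gm10801 the H3K9me3 covered length averaged 2723 ± 279 bp in mfn2-/- libraries, against 3206 ± 280 bp in the wild-type, 3451 ± 154 bp in the vhl-/- and 3479 ± 672 bp in the HIF1dPA libraries (SD, n = 3 each; exact permutation p = 0.152, adjusted p = 0.38). The individual lengths in bp were 3350, 2884 and 3385 in wild-type and 3011, 2454 and 2705 in mfn2-/- lists, then 3336, 3390 and 3626 in vhl-/- and 4254, 3064 and 3119 in HIF1dPA lists. The mfn2-/- values were the lowest but overlapped wild-type at 2884 bp.

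At Gm5614 the lengths were 665, 682 and 662 bp in wild-type and 1132, 675 and 678 bp in mfn2-/- lists, then 796, 665 and 690 bp in vhl-/- and 672, 845 and 652 bp in HIF1dPA lists (exact permutation p = 0.66, adjusted p = 0.832). Apart from mfn2-/- 1, all lay between 652 and 845 bp. Ryr3 had 553 bp in wild-type 2, 812 bp in vhl-/- 1 and 522 and 564 bp in HIF1dPA 1 and 2, and 0 elsewhere (exact permutation p = 0.727, adjusted p = 0.889). These 4 Ryr3 peaks had scores of 51 to 63.2, lay at 4 different places in introns 1 and 67, and did not overlap any Ryr3 H3K27me3 peak.

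Wild-type and the 9 mutant lists were then compared by an exact two-sided permutation test, whose smallest possible p is 0.00455. Of 1491 genes, 210 passed at an adjusted p under 0.05 (14.1%). In 213 genes every mutant list was below every wild-type list (14.3%), and in 3 every mutant list was above (0.201%), in lists that were longer in wild-type. None of the 3 members passed or had groups that did not overlap. The mutant mean minus the wild-type mean was 11.3 bp at Gm10801 (exact permutation p = 0.982, adjusted p = 1), 86.4 bp at Gm5614 (p = 0.414, adjusted p = 0.727) and 26.6 bp at Ryr3 (p = 0.873, adjusted p = 0.98), while the median over all genes tested was -276 bp. The labels do not say whether replicates came from separate animals. The paper's figure legends give 3 mice per group for the wild-type and mfn2-/- lists. They give 3 biological replicates for each ChIP-seq data set. These p-values measure the spread between libraries.

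**Figure D3:**
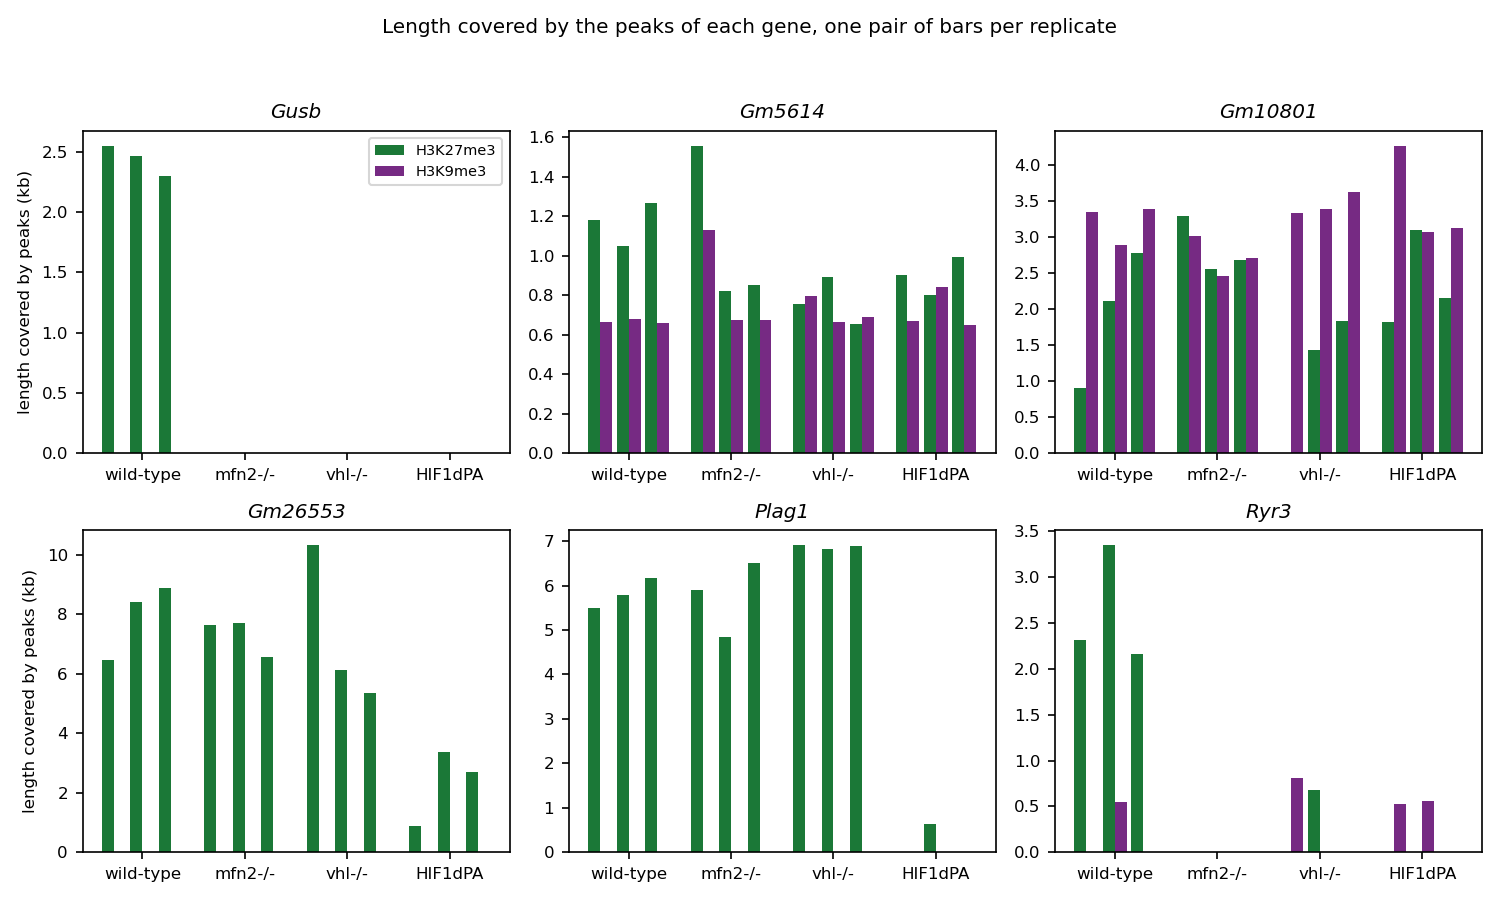
Length in kb covered by the peaks of each gene in each library, with 3 pairs of bars per genotype for replicates 1 to 3, green for H3K27me3 and purple for H3K9me3; each panel has its own vertical scale from 0. The H3K9me3 bars of Gm5614 and Gm10801 are present in all 12 libraries and overlap between genotypes, and the H3K27me3 bars of Gusb are present in wild-type only.

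Of the 6 genes, 3 had peaks of both marks, and at 2 of them, Gm5614 and Gm10801, the peaks of the 2 marks shared bases. Over the series, 115 of 15965 merged H3K27me3 regions had an H3K9me3 peak in at least 1 list (0.72%), and 11 had one in all 12 lists. Merging the peaks of both marks gave 29535 regions, of which 2 had a peak in all 24 lists. They were the Gm5614 region and a 1302-bp region of Gm9075 on chromosome 12. The Gm10801 region was in 23 lists, as was a 1273-bp region of Chl1 on chromosome 6. Whether peaks that recur in the lists of both antibodies come from the marks or from mapping signal common to all libraries was not tested. Peak lists alone cannot tell them apart. Conversely, 18 of the 23 H3K27me3 regions in all 12 H3K27me3 lists had no H3K9me3 peak. Among them were the Gm26553 and Platr30 region and regions of the developmental transcription factors Lhx2 and Lhx9. Regions of Myh8, Tmem33 and Dock3 were also among them. The Nkx2-4 and Lin28b regions, also in all 12 H3K27me3 lists, had an H3K9me3 peak in 1 list each. These genes were named after their values had been seen.

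The members differed in width as well as in score. In H3K27me3 lists the highest-scoring peak of Gm5614 was 653 to 1270 bp wide and that of Gm10801 was 721 to 1368 bp. In wild-type, mfn2-/- and vhl-/- lists it was 2298 to 2543 bp at Gusb, 1941 to 6506 bp at Plag1 and 2918 to 7691 bp at Gm26553, all wider than those of Gm5614 and Gm10801. Ryr3 had 1560 to 2461 bp in wild-type and 684 bp in vhl-/- 2. In HIF1dPA lists Plag1 had 637 bp and Gm26553 had 795 to 2204 bp. The median peak of a list was 611 to 825 bp wide. Divided by width, the scores of Plag1 were 9.71 to 13.8 per 100 bp and those of Gm26553 were 6.6 to 13.3, against list medians of 8.55 to 9.35. Within their lists these ratios had a median percentile of 93.4 at Plag1 (72.4 to 99) and 90.8 at Gm26553 (4.81 to 98.2), where 100 is the highest. Gusb had 34.4 to 39.1 per 100 bp, and Gm5614 had 14 to 105. Ryr3 had 8.37 to 16.5 in wild-type and 7.46 in vhl-/- 2, and Gm10801 ranged from 8.9 to 66.7. In H3K9me3 lists Gm5614 reached 51.1 to 284 per 100 bp, against list medians of 8.94 to 10.1. The score rises with depth and with width, so these ratios describe the lists and are not amounts of the mark.

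**Figure D4:**
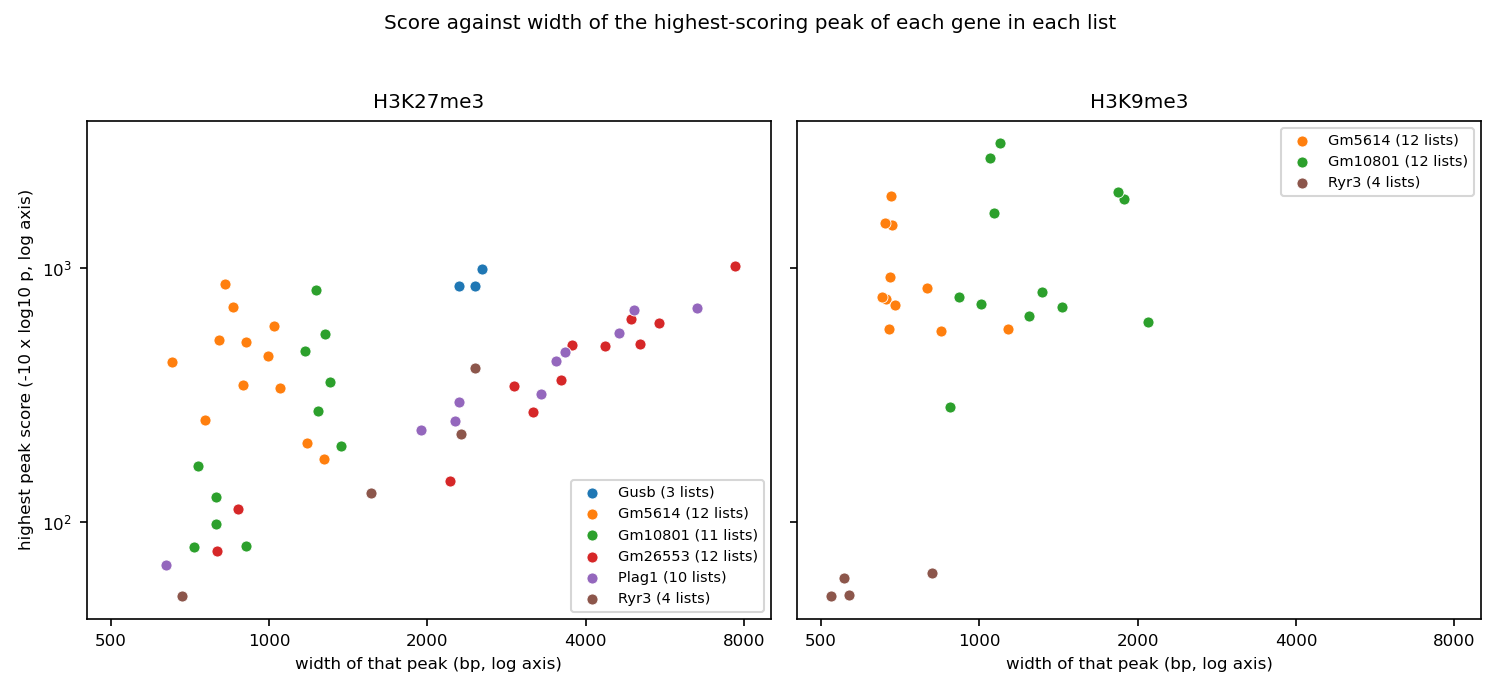
Score against width of the highest-scoring peak of each gene in each list, both on log axes, for H3K27me3 (left) and H3K9me3 (right), 1 point per list. Plag1 and Gm26553 lie along a band in which score rises with width, Gusb lies above it, and Gm5614 lies between 653 and 1270 bp on the left and between 652 and 1132 bp on the right.

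The members filled 28 of the 120 places among the 10 highest peaks of the 12 H3K27me3 lists, from 1 place in wild-type 1 and vhl-/- 2 to 4 in HIF1dPA 2. These places follow from the scores that chose the members and compare lists of unequal length, so they are a description. Gusb was there in wild-type only, Gm26553 in 7 lists of all 4 genotypes, Gm5614 in all mfn2-/- and HIF1dPA lists but in no wild-type or vhl-/- list, and Plag1 in all vhl-/- lists, in wild-type 3 and in mfn2-/- 3. Gm10801 was there in 2 mfn2-/- and 3 HIF1dPA lists. In H3K9me3 lists, Gm5614 and Gm10801 filled 34 of 120 places, and Gm5614 was in all 12.

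Genes with a like pattern were sought by Pearson's r of the highest score percentile over the 24 lists, among 2803 genes with a peak in at least 4 lists. The lists share libraries and lengths, and a gene without H3K9me3 peaks resembles any other such gene, so r is a description only. Gm10801 was most like Chl1 (r = 0.96), Gm9075 (0.706) and 2210408I21Rik (0.648), and the same 3 genes were nearest to Gm5614, with 0.607, 0.708 and 0.644 in that order. All 3 were listed in 12 of 12 H3K9me3 lists and in 9 to 12 H3K27me3 lists. Gm26553 was most like Coil (0.999), Myh8 (0.998), the neonatal myosin heavy chain, and Sp8 (0.997), a transcription factor of limb outgrowth. These 3 were in 12 H3K27me3 lists and no H3K9me3 list. A percentile places a peak within its own list, so r does not compare scores between genotypes. The paper reports less H3K27me3 at Myh8 in mfn2-/-, vhl-/- and HIF1dPA myofibers than in wild-type. Plag1 was nearest to Gm10837 (0.999), Meis2 (0.999) and Otx2 (0.998), the last 2 developmental transcription factors. Ryr3 was nearest to Nop58 (0.889), Gm20421 (0.879) and Itgb4 (0.815), each in 4 H3K27me3 lists. Gusb, present in 3 lists, was below the minimum and was not compared. The Hox cluster genes, classical Polycomb targets, were taken as those with a peak of either mark, 21 in all, and none of them had an H3K9me3 peak. Hoxd13 was the only 1 of the 21 in all 12 H3K27me3 lists, and Hoxc10 and Hoxd9 were in 1 list each.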

How the data were processed

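Peak lists of 24 ChIP-seq libraries were analysed, and 1 input library was not used here. Per the labels, 1% formaldehyde was used for crosslinking, and fragments were near 500 bp. The submitters' processing notes name mm10, BWA 0.7.5, MACS and deepTools 3.5.0. The authors called and deposited peaks per library, and the score in each deposited list is the negative log10 of a peak's p-value times 10, with a lower limit of 50. The MACS version and use of the input are not given in the sources used here.

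Width was end minus start plus 1, covered length was the sum over a gene's peaks, and regions were merged peaks that overlapped by at least 1 bp. A peak counted for a gene by the authors' symbol. The build was checked against RefSeq. Of exon and intron peaks whose gene was in RefSeq, 91.7% overlapped that gene. Of 9414 matched promoter peaks, 74.6% lay within 2000 bp of a RefSeq gene end. H3K9me3 covered length was tested by exact permutation over libraries and Benjamini-Hochberg adjustment over all genes with a peak in at least 3 of 12 lists (threshold 0.05). The permutation test was tested on simulated data. Genes with a different level in each genotype passed the adjusted threshold. Genes listed in 1 genotype only passed unadjusted but not after adjustment, since ties among arrangements hold their p at 0.0182 or more. The simulated levels were several-fold apart, with less noise than some members showed between libraries. The simulation therefore does not show whether smaller differences would be found. Named were the 6 members, the 3 genes most like each, and the members of preset gene lists with peaks. The members and lists were chosen with earlier results of these data known. Alternatives were a score of at least 100, equal numbers of strongest peaks per list (887 and 482), presence or score percentile in place of length, other filters and overlaps, a replicate block, and leaving out each library. Depth is unknown, so no interval was computed. Scripts ran under Python 3.11.15 with pandas 2.3.3, numpy 2.4.6 and, for plots, matplotlib 3.10.9.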

Additional observations from a re-analysis of the deposited data

How the results depend on the processing

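No member passed the H3K9me3 test under any of the 18 alternatives, across the 4 genotypes or between wild-type and mutants. The unadjusted p across genotypes ranged from 0.0194 to 1 at Gm10801 (adjusted p 0.1 to 1), from 0.0868 to 1 at Gm5614 (0.29 to 1) and from 0.25 to 0.836 at Ryr3 (0.464 to 1; 16 alternatives), by exact permutation. The value of 0.0194 came from the score percentile in place of covered length.

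The number of all genes that differed across genotypes, 3, was 23 at a score of at least 100, 32 with the 887 strongest peaks per list, 0 with presence in place of length, 0 with a peak in at least 1 list and 0 with the replicate block. It ranged from 0 to 44 when single libraries were left out, 0 without any 1 mfn2-/- library, without wild-type 2 or without HIF1dPA 2, 7 without vhl-/- 3 and 44 without HIF1dPA 3. The 216 genes with wild-type and mutant groups that did not overlap became 35 at a score of at least 100, 56 with the 887 strongest peaks and 80 by presence, and 187 to 232 when single libraries were left out. The causes were not tested. Replicate numbers come from the titles, and same-numbered libraries did not deviate together (r from -0.17 to 0.31 over 18 pairs, 1 above 0.1). These correlations cannot show whether same-numbered libraries shared a preparation or a batch. The block changed no call of a member.

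Ryr3, with peaks of H3K9me3 in 4 lists, had them in 1 with equal numbers of peaks, which left 3 genes with both marks, and in 0 at a score of at least 100 and over the merged H3K27me3 region, at either overlap, which left 2. The share of H3K27me3 regions with H3K9me3 stayed between 0.695% and 1.05%. Unknown read depth limits every statement on an absent peak, most of all for H3K27me3 in HIF1dPA.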
